A study of Triticum aestivum with 3 samples.

Results

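Degradome reads assigned to the small RNA families miR156 and miR157 were examined in leaves of wheat (Triticum aestivum) seedlings. The members were all pairs of a small RNA and a transcript whose small RNA name carries one of these family numbers exactly, after miR or MIR. There were 498 such pairs of 12450 in the deposited tables, with 49 of 1233 small RNA names and 155 of 7483 transcripts. Many pairs list the same reads, since each related small RNA has a line of its own, as does each homeologous transcript (the copies of a gene in the A, B and D genomes of hexaploid wheat). Pairs taken by their counts to hold the same reads were counted once, which left 113 degradome signals of 4574, with 1020 of 55312 reads (1.84%). The reads themselves could not be compared, so at low counts pairs with different reads may have been merged. Here a signal is a group of pairs with a small RNA or a transcript in common and nearly the same read counts in every library.

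Leaves were taken after 2 days of treatment from an untreated control, from seedlings given dithiothreitol (DTT) and from seedlings given DTT together with tauroursodeoxycholic acid (TUDCA). Each treatment had 3 independent biological replicates, which makes 9 libraries in all. DTT is a reductant that breaks disulphide bonds and so upsets the folding of proteins in the endoplasmic reticulum, while TUDCA, a bile acid, acts there as a chemical chaperone. The cultivar, the doses and a group given TUDCA alone are not described in the sources used here, so an effect of TUDCA without DTT cannot be told apart from one on the DTT response. The study looked for targets of microRNAs involved in endoplasmic reticulum stress.

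In plants, miR156 guides the slicing of transcripts of SPL (SQUAMOSA promoter-binding protein-like) transcription factors, and miR157 is a close relative with nearly the same sequence and targets. High miR156 keeps shoots in the juvenile phase, and as it declines the SPL factors rise and switch on miR172, which in turn acts on AP2-like transcripts. In grasses the same module is known for its part in tillering and in the shape of the inflorescence. Degradome sequencing reads the ends of cut RNAs bearing a 5′ monophosphate, the end that slicing leaves on the downstream piece. Its reads depend on the amount of transcript as well as on the slicing, and these cannot be told apart here. None of the 155 transcripts matched an entry of the RefSeq gene table of wheat (0 matches), so whether any of them encodes an SPL factor is not known from the sources used here. Transcripts are therefore named by their identifiers, which give the chromosome arm where they hold one. Sequences of these small RNAs and transcripts were not used here.

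The libraries held 11.25M to 13.01M reads, numbers recovered from the deposited values. Whether they count raw, filtered or mapped reads is not given. All signals of the tables together gave 4452.1 ± 354 reads per 10M library reads (the unit of all levels below) in control libraries, 4725.4 ± 954 in those of DTT and 5552.9 ± 420 with TUDCA added (SD, n = 3). DTT replicate 3 was the lowest library, at 3699.8. Depth was low for most members: 17 of the 113 signals had 10 reads or more over all libraries, 31 had 4 to 9 and 65 had 3 or fewer. The labelled tissue was not checked against marker genes, since the tables pair small RNAs with transcripts that are not annotated here. The reads were counted without molecular identifiers, so intervals below cover counting error only.

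Of the 49 names, 48 belong to miR156 and 1 to miR157 (aly-miR157a-5p_R+1). The names come from 19 species prefixes, such as osa for rice, zma for maize and aly for Arabidopsis lyrata, and 0 of the 49 carry the wheat prefix tae. Mature microRNA names made up 44, of which 6 were marked 3p, and 5 names were precursor arms (-p5 or -p3), meaning sequences placed on an arm of a hairpin without matching its annotated mature form. In such names L and R usually count the bases gained or lost at the 5′ and 3′ end against the reference sequence, and ss marks substitutions, although the deposited data do not define these letters.

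The mature names fell into sets that always listed the same reads where they were listed together. The largest, called the reference set here, held 21 names, among them osa-miR156a, zma-miR156a-5p and aof-miR156b_L-1. A second set of 14 names held aof-miR156b, han-miR156a_L+1, the single miR157 name and 1 precursor-arm name, aof-MIR156b-p5. Sets of 2 names (osa-miR156a_L+2 and mes-miR156a_L+2) and 1 name (sbi-miR156a_L+3) followed. The sets are called plus 1, plus 2 and plus 3 after the L numbers of aof-miR156a_L+1R+1_1, osa-miR156a_L+2 and sbi-miR156a_L+3. The same reference names without an L number stand in the reference set. Of the 5 reference names that occur in more than 1 set, these therefore fit by definition. The others, aof-miR156b and han-miR156a, differed by 1 in L between the reference and plus 1 sets. No sequence or cleavage position was used to measure the shifts. By the same count aof-miR156b_L-2 stood at minus 1. As slicing is placed by counting from the 5′ end of the small RNA, names with a shifted end would point to different ends on the same transcript. Reads for miR157 could not be separated from those for the 13 miR156 names of its set.

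The reference set was listed in full on 9 transcripts, which formed 5 signals. Its reads made up most of those listed for the sets on each of them. On the transcript TRAES3BF084600040CFD_g of chromosome 3B, 191 of 203 reads (94.1%, 95% exact interval 89.9 to 96.9) belonged to the reference set, 7 to plus 1, 4 to plus 2 and 1 to plus 3. On Traes_6AS_99C6A3B0B and Traes_6DS_7B1596298, which list the same reads, the reference set had 222 of 263 reads (84.4%, interval 79.5 to 88.6), plus 1 had 35 (13.3%, interval 9.45 to 18.0) and plus 2 had 6. The group of Traes_6AS_32A35158A, Traes_6BS_542961EA4 and Traes_6DS_C4D93239C had 32 of 36 reads in the reference set. Traes_5BL_96FDFC152 with Traes_5DL_1272B4BAC had 16 of 18, and all 16 reads of Traes_5BL_96D5EA4EE belonged to it. The 2 strongest signals, on 6AS and 6DS and on 3B, held 40.5% of all reads of the families.

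**Figure D1:**
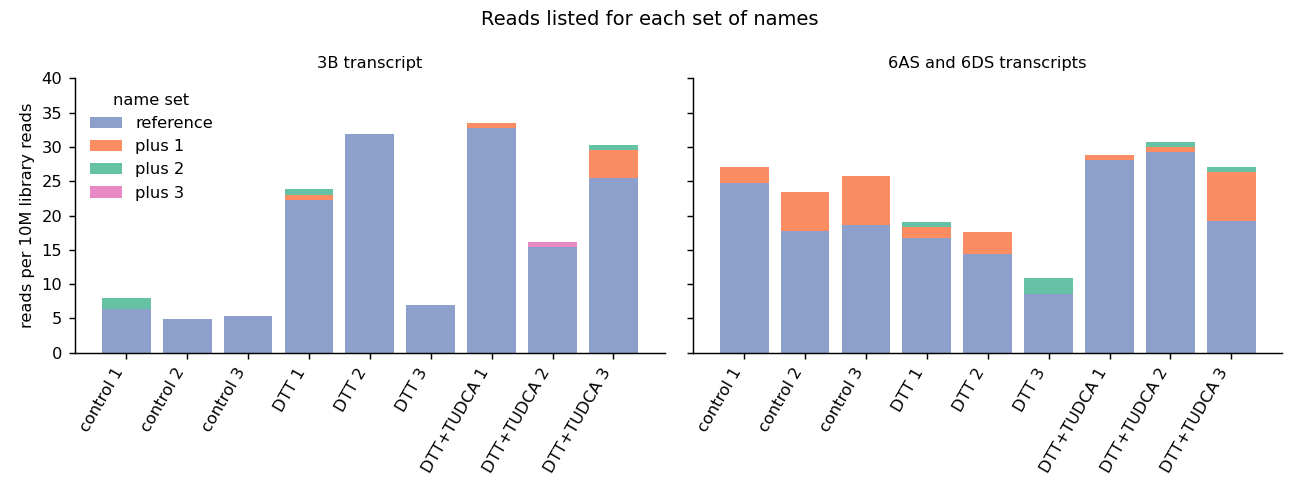
Reads per 10M library reads listed for each set of names (stacked colours) in each of the 9 libraries, on the 3B transcript (left) and on the 6AS and 6DS transcripts (right). The reference set made up most of every bar. On 3B the control bars stand below those of all other libraries except DTT replicate 3. With all sets stacked, the bar of that library lies below that of control replicate 1.

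The 6AS and 6DS signal of the reference set was the strongest of the families in the control. It had 31, 22 and 21 reads in the control libraries, 21, 18 and 11 in DTT and 36, 38 and 24 in DTT with TUDCA. These are 20.4 ± 3.77, 13.2 ± 4.20 and 25.5 ± 5.53 reads per 10M (SD, n = 3). Every DTT library lay below every control library and below every library of DTT with TUDCA, while the latter overlapped the control.

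The 3B signal, listed for the same 21 names, followed another pattern. It had 8, 6 and 6 reads in the control, 28, 40 and 9 with DTT and 42, 20 and 32 with both compounds, which is 5.52 ± 0.779, 20.4 ± 12.6 and 24.6 ± 8.75 reads per 10M. All treated libraries lay above all control libraries, with DTT replicate 3 at 6.98 only just above the highest control library at 6.38. The second number deposited by the authors divides the raw reads by 2 on 6AS and 6DS, where the same reads are listed for 2 transcripts, and by 1 on 3B.

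**Figure D2:**
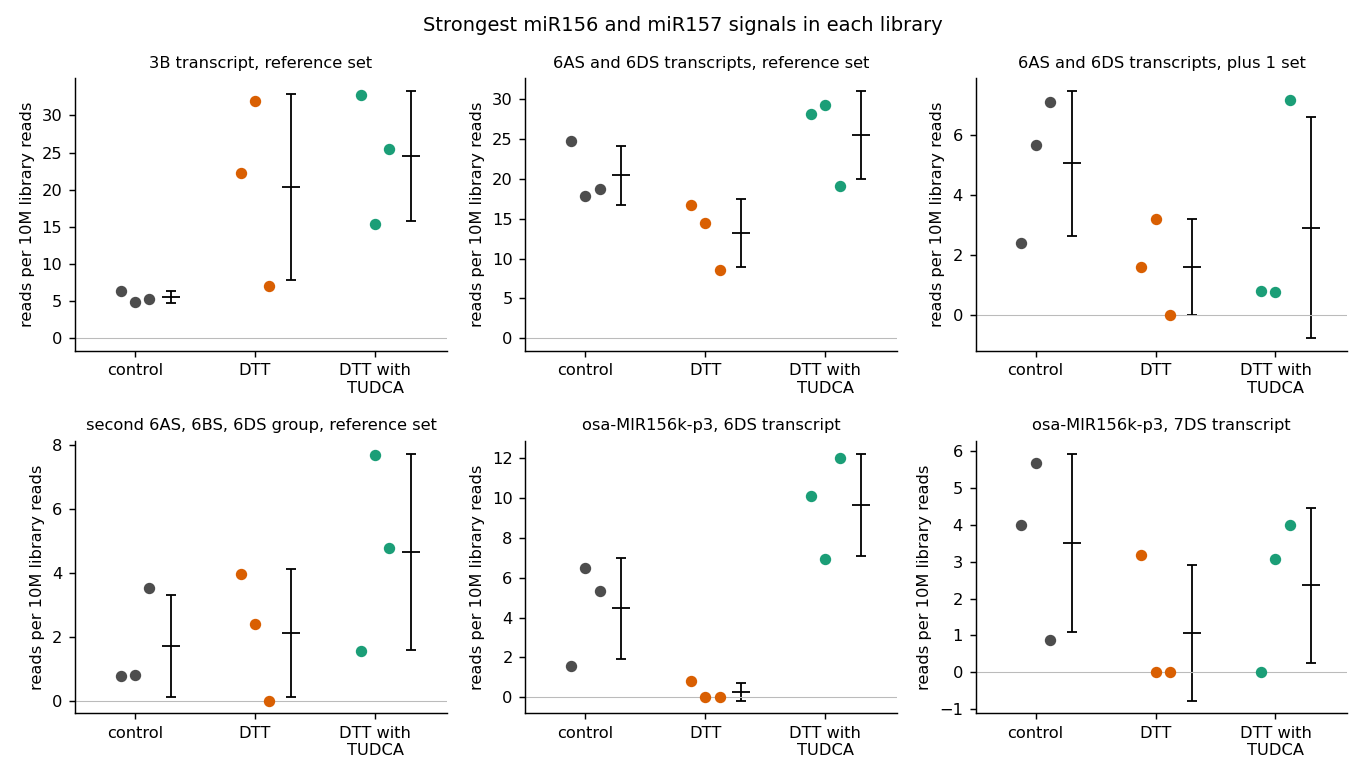
Reads per 10M library reads in each library (points) with the mean and SD of 3 libraries (bars) for the 5 signals tested in the fits of 2 treatments and the next strongest, on 7DS. The 3B signal is low in all control libraries, and the osa-MIR156k-p3 signal on 6DS is at or near 0 in all DTT libraries.

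The comparison of DTT with the control asked which signals respond to the reductant. The 3B signal rose, with a log2 fold change of 1.86 (SE 0.56, adjusted p = 0.0402 by the edgeR quasi-likelihood test with Benjamini-Hochberg adjustment over all tested signals). The 6AS and 6DS signal stood at -0.63 (SE 0.48, adjusted p = 0.549) and was not called. These were the 2 members that passed the filter on low counts, so 1 of 2 was called higher and 0 lower, against 5 called of all 156 tested signals (3.21%). The groups did not overlap in either member, against 34 of all tested signals (21.8%). The median log2 fold change was 0.62 over the 2 members and -0.08 over all tested signals. The call of the 3B signal was lost with TMM scaling (log2 1.87, adjusted p = 0.0518), with DESeq2 (1.97, 0.0927), with limma-voom (1.57, 0.148), without a filter on low counts (1.86, 0.512) and without merging (1.86, 0.0564). It was also lost without control replicate 1 (1.98, 0.236), 2 (1.78, 0.190) or 3 (1.84, 0.595) and without DTT replicate 1 (1.79, 0.0794) or 2 (1.38, 0.354), but held without DTT replicate 3 (2.27, 0.00884).

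The second comparison set the libraries that received both compounds against the control. The 3B signal rose again, by a log2 fold change of 2.13 (SE 0.46, edgeR adjusted p = 0.000425), and it was the only called member of the 4 that passed the filter. That call held in each of the 15 alternatives run, with log2 fold changes of 1.87 to 2.38 and adjusted p of 0.000214 to 0.0314. The 6AS and 6DS signal of the reference set stood at 0.32 (SE 0.38, adjusted p = 0.682), and the plus 1 signal on the same transcripts, which holds the miR157 name, at -0.78 (SE 0.89, adjusted p = 0.672). The signal of the precursor-arm name osa-MIR156k-p3_2ss13TC17TC on Traes_6DS_BE3605A23 stood at 1.10 (SE 0.58, adjusted p = 0.279). Of all 166 tested signals 16 were called (9.64%), 14 higher and 2 lower. The groups did not overlap in 2 of the 4 members, against 38 of all tested signals (22.9%). Of these 2, osa-MIR156k-p3_2ss13TC17TC on 6DS passed the filter only with the libraries of DTT with TUDCA, where it is higher. Neither this share nor the median of the members is therefore read as a result. The median was 0.71 over the 4 members and 0.30 over all tested signals, and with TMM scaling that of all signals was 0.09 and the 3B signal stood at 1.93 (adjusted p = 0.00716). Both comparisons share the control libraries, so the rises of the 3B signal in them are not independent of each other.

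The third comparison, of DTT with TUDCA against DTT alone, asked which signals differ once the chaperone is added. The osa-MIR156k-p3_2ss13TC17TC signal on 6DS was higher, with 1, 0 and 0 reads in the DTT libraries and 13, 9 and 15 in those of DTT with TUDCA. Its fitted log2 fold change was 4.76 (SE 0.97, edgeR adjusted p = 0.0190), and the ratio of 37 reads to 1 was 36.7 with a counting interval of 6.19 to 1487.1. It passed the filter through the libraries of DTT with TUDCA, where it is high. Its call was lost by DESeq2 (adjusted p = 0.107) and limma-voom (0.117), and without DTT replicate 3 (0.127) or replicate 1 (0.0944) or 3 (0.541) of DTT with TUDCA. The 3B signal did not differ beyond its error, at 0.27 (SE 0.50, adjusted p = 0.938), and without DTT replicate 3 its sign turned (-0.14, adjusted p = 0.986). The 6AS and 6DS signal stood at 0.95 (SE 0.44, adjusted p = 0.669). That of the second 6AS, 6BS and 6DS group stood at 1.11 (SE 0.99, adjusted p = 0.791). Of all 187 tested signals 2 were called (1.07%), and 29 had groups without overlap (15.5%). No share is read from the 4 tested members, since the called one entered through the group where it is high. Over all tested signals the median was 0.26, or -0.01 under TMM scaling, with which osa-MIR156k-p3_2ss13TC17TC on 6DS stood at 4.55 (adjusted p = 0.0147).

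**Figure D3:**
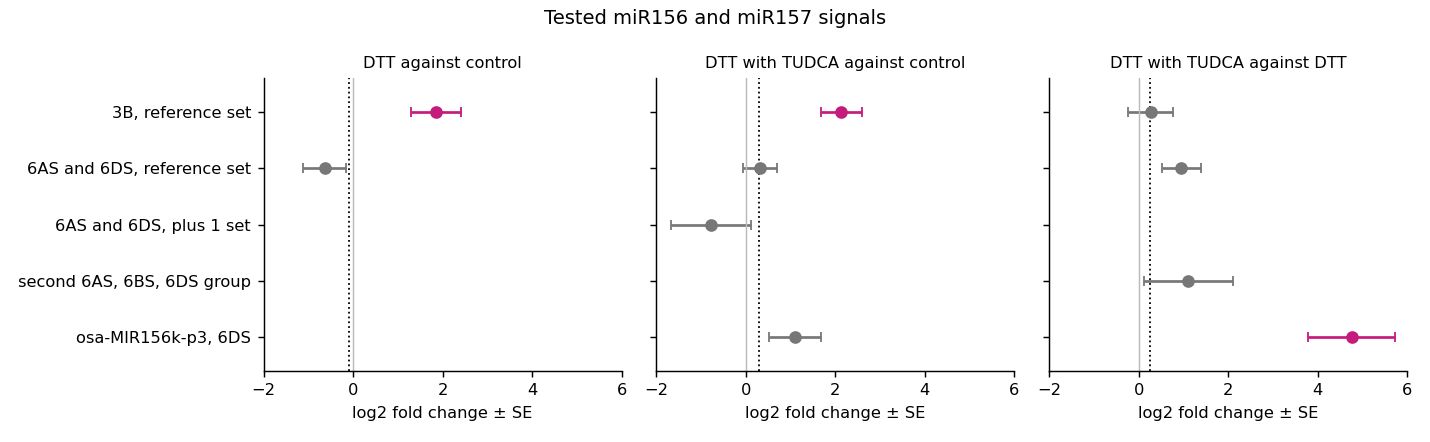
Log2 fold change with its SE (bars) of each tested member in the 3 comparisons, with called signals in magenta, others in grey and the median of all tested signals as a dotted line. The 3B signal lies at 1.86 and 2.13 against the control, and osa-MIR156k-p3 on 6DS at 4.76 for DTT with TUDCA against DTT.

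As the 3B and the 6AS and 6DS signals belong to the same 21 names, their ratio within a library was compared as well. The 3B reads were 0.258, 0.273 and 0.286 of the 6AS and 6DS reads in the control libraries. They were 1.33, 2.22 and 0.818 of them in DTT and 1.17, 0.526 and 1.33 in DTT with TUDCA. Both treated groups lay wholly above the control, and library depth cancels in this ratio. The mean log2 ratio differed from the control by 2.30 for DTT and 1.78 for DTT with TUDCA, with exact permutation p = 0.1 (two-sided) for each, which is the lowest value possible with 3 libraries a group. Between the treated groups the difference was -0.52 (exact permutation p = 0.5). This ratio was chosen after its values were seen. Together with the share described next, 6 such tests were made, none of which can pass 0.05 with these numbers of libraries, and adjusted over them p was 0.3, 0.3 and 0.6 for the ratio.

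**Figure D4:**
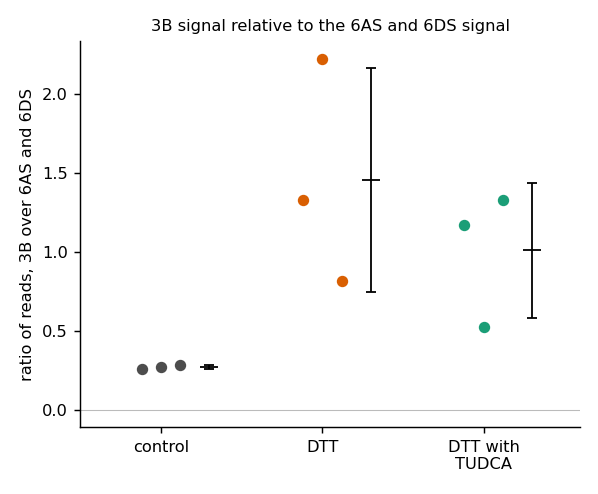
Reads of the 3B signal over reads of the 6AS and 6DS signal in each library (points), with the mean and SD of 3 libraries (bars). The control libraries lie between 0.258 and 0.286 and the treated libraries between 0.526 and 2.22.

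On the 6AS and 6DS transcripts the plus 1 signal, the one with the miR157 name, had 3, 7 and 8 reads in the control, 2, 4 and 0 with DTT and 1, 1 and 9 with both compounds. As a share of all reads of the sets there, it was 20.2% ± 9.99 in the control, 8.84% ± 9.10 with DTT and 10.6% ± 13.8 with both compounds (SD, n = 3). The groups overlapped in each comparison (exact permutation p = 0.2, 0.3 and 0.8, or 0.4, 0.45 and 0.8 adjusted over the 6 tests). On 3B the plus 1 reads were 0, 0 and 0 in the control, 1, 0 and 0 with DTT and 1, 0 and 5 with both compounds, too few for a comparison.

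The second group on homeologous arms, Traes_6AS_32A35158A with its 6BS and 6DS partners, had 1, 1 and 4 reads of the reference set in the control, 5, 3 and 0 with DTT and 2, 10 and 6 with both compounds, and all groups overlapped. Traes_5BL_96FDFC152 with Traes_5DL_1272B4BAC had 4, 2 and 3 reads in the control, 0, 1 and 3 with DTT and 1, 1 and 1 with both compounds. Traes_5BL_96D5EA4EE had 1, 1 and 1 in the control, 6, 1 and 0 with DTT and 1, 1 and 4 with both compounds. Neither of the 5BL signals passed the filter on low counts, and in both the DTT libraries overlapped the control. In the former the libraries that received both compounds, at 0.769 to 0.797 reads per 10M, all lay below the control libraries, at 1.62 to 3.19. Groups without overlap were found in 22.9% of all tested signals in this comparison. On Traes_2BS_186EA570A, where 16 of the 21 names are listed, the reads were 1, 1 and 3, then 1, 3 and 0, then 0, 2 and 3 in the same order of groups, which overlapped.

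Some single names of the mature sets had signals of their own. The name aof-miR156b_L-1R-2, shortened at both ends by its name, gave 0, 1 and 0 reads on Novel11955 in the control, 2, 1 and 14 with DTT and 2, 1 and 0 with both compounds, so that 14 of its 21 reads came from DTT replicate 3. On Traes_2DS_BE8BF0D1E the same name had 2, 5 and 1 reads in the control, 0, 0 and 1 with DTT and 0, 1 and 0 with both compounds. The minus 1 name aof-miR156b_L-2 had 2, 3 and 2 reads on Traes_5AL_3F1478269 in the control, 1, 0 and 1 with DTT and 0, 0 and 1 with both compounds. Per 10M the control libraries were the higher ones in both of these last signals. On Traes_2DS_BE8BF0D1E control replicate 3 (0.889) had 1 read, as had DTT replicate 3 (0.775) and DTT with TUDCA replicate 2 (0.769). There only library size sets these libraries apart. Groups without overlap were found in 21.8% (DTT) and 22.9% (DTT with TUDCA) of all signals tested against the control. Both last signals had 10 reads in all and did not pass the filter in the fits of 2 treatments with all their libraries. Over its 7 signals the minus 1 name stood at 3.33 ± 0.849 reads per 10M in the control, 1.05 ± 0.436 with DTT and 1.84 ± 1.23 with both compounds. Of the 23 reads in this sum, 10 were those on Traes_5AL_3F1478269, which stood at 1.93, 0.523 and 0.266 in the 3 groups. Control and DTT with TUDCA overlapped in the sum, with DTT with TUDCA replicate 3 at 3.19 and control replicate 1 at 2.39.

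Signals with precursor-arm names alone made up 62 of the 113 and held 353 reads (34.6%), against 44 signals and 658 reads (64.5%) that include a mature name not marked 3p. The 3p names, which stand for the strand opposite the one known to guide slicing of SPL transcripts, had 7 signals with 9 reads. Most precursor-arm reads came from 1 name, osa-MIR156k-p3_2ss13TC17TC, which carries 2 substitutions against the rice hairpin by its name. It was listed on 84 transcripts, whose 52 signals had 309 reads, 27 of the signals having 3 reads or fewer. That this sequence shares the targets of mature miR156 is not shown by any source used here.

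The strongest signal of osa-MIR156k-p3_2ss13TC17TC was the called one on Traes_6DS_BE3605A23, with 2, 8 and 6 reads in the control beside the values given above, or 4.46 ± 2.55, 0.265 ± 0.458 and 9.68 ± 2.55 reads per 10M in the 3 groups. No library of one group overlapped those of another, but the highest control library, at 6.47, lay just below the lowest of DTT with TUDCA, at 6.92. Groups without overlap were found in 21.8%, 22.9% and 15.5% of all tested signals in the 3 comparisons. The 6DS signal did not pass the filter between DTT and control, where the 16 control reads against 1 gave a ratio of 16.8 (counting interval 2.61 to 705). In 1 fit of all 3 treatments, an alternative in which it did pass, the log2 fold change of DTT against control was -3.65 (SE 1.13, edgeR adjusted p = 0.0613 over 221 signals). The raw reads of this signal are divided by 2 in the authors' second number, although 1 transcript is listed for it.

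The next signals of the same name had fewer reads. On Traes_7DS_532F8D0CE the reads were 5, 7 and 1 in the control, 4, 0 and 0 with DTT and 0, 4 and 5 with both compounds. On Novel00575, Novel02050 and Novel11920, which were merged to 1 signal, they were 7, 2 and 0, then 3, 1 and 8, then 4, 0 and 0. Groups overlapped in both. The mean was lowest with DTT on 7DS, at 1.06 reads per 10M against 3.51 in the control, and lowest with both compounds on the latter, at 1.04. On Novel08753 the reads were 0, 5 and 0, then 4, 1 and 0, then 0, 1 and 2. On Traes_2BL_C1D1054B1 and its 2DL partner they were 0, 4 and 1, then 0, 2 and 1, then 1, 1 and 1, and on Traes_5BS_EF6774FAC and its 5DS partner 1, 1 and 1, then 1, 0 and 1, then 1, 2 and 2. Another precursor arm, cca-MIR156c-p3_2ss7CT17AC, had 0, 2 and 3 reads on Traes_1BL_2F31FBFAF in the control, 0, 6 and 2 with DTT and 0, 4 and 0 with both compounds. None of these signals passed the filter in the fits of 2 treatments with all their libraries.

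The other 96 signals had 1 to 9 reads each and at most 5 in any library. Together they gave 23.0 ± 6.22 reads per 10M in the control, 24.0 ± 10.9 with DTT and 31.8 ± 2.71 with both compounds. Of the 155 transcripts, 122 carry a chromosome in their identifier, and these lay on 20 chromosomes, with 39 in the A, 45 in the B and 38 in the D genome (32%, 36.9% and 31.1%, against 33.2%, 33.7% and 33.1% of the transcripts of all tables). The identifiers of the other 33 name no chromosome.

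Summed over all 113 signals, the families gave 82.1, 88.1 and 70.2 reads per 10M in the control, 94.5, 93.4 and 51.2 with DTT and 114, 108 and 112 with both compounds. The DTT libraries spanned the control, and DTT replicate 3 was again the lowest. The libraries of DTT with TUDCA all lay above the rest, and over signals of all kinds these libraries, at 5076.3 to 5869.6, also lay above the control libraries, at 4057.0 to 4740.6. As a share of all signal reads of a library, the families made up 1.81% ± 0.246, 1.66% ± 0.265 and 2.01% ± 0.2 in the 3 groups (SD, n = 3), which overlapped. Without the 2 strongest signals the sums were 54.2 ± 10, 46.1 ± 9.99 and 61.3 ± 7.49 reads per 10M. Mature names not marked 3p stood at 48.7 ± 2.46, 54.1 ± 17.4 and 72.3 ± 7.20, and precursor arms at 30.6 ± 10.8, 25.1 ± 11.2 and 38.0 ± 4.38. These sums are a description and were not tested.

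**Figure D5:**
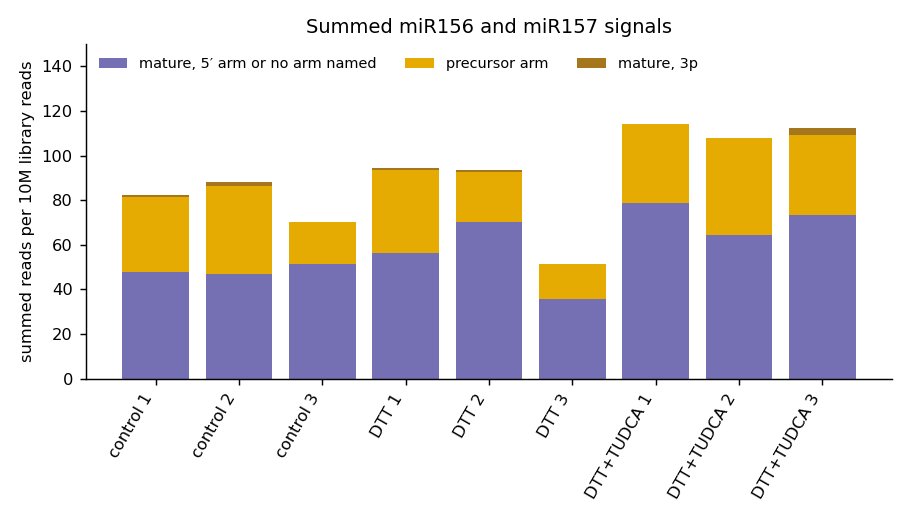
Summed reads per 10M library reads of all miR156 and miR157 signals in each library, split into mature names not marked 3p, precursor arms and 3p names. The libraries of DTT with TUDCA stand highest, at 108 to 114, and DTT replicate 3 lowest, at 51.2.

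Among small RNAs of the same pathway, miR172 had 122 signals. Of these, 8 were tested between DTT and control with 0 called, 10 between DTT with TUDCA and control with 1 called higher, and 8 between DTT with TUDCA and DTT with 0 called. The called one was aly-miR172c-3p_L-3 on Traes_6DS_0D9BB546D (log2 2.41, SE 0.55, edgeR adjusted p = 0.000883). Over all tested signals 3.21%, 9.64% and 1.07% were called in these comparisons, so 1 of 10 is near the share of all signals. The medians over the tested miR172 signals were 0.00, 0.26 and 0.29, near those of all tested signals. The related miR529, known to act on SPL transcripts as well, had 0 signals in the tables used here, and miR535 had 6 signals, of which 0 passed the filter.

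The 3B signal had the lowest p of the members, and 239 signals of other families with at least 30 reads were ranked by their likeness to it over the 9 libraries. The most alike was gma-MIR5368-p5_1ss2TC_1 on 6AL and 6DL (Spearman's rho 0.95, Pearson's r 0.97), at 0.562 ± 0.489, 5.56 ± 3.68 and 5.74 ± 1.21 reads per 10M in the 3 groups, control first. Next came ath-miR847_L-2 on 4AL, 4BS and 4DS (rho 0.92, r 0.84), at 1.96 ± 1.00, 4.21 ± 0.503 and 4.96 ± 0.971. The third was PC-5p-10739_211 on 5BS (rho 0.90, r 0.90), at 2.46 ± 0.706, 10.1 ± 9.56 and 9.42 ± 3.51. These correlations are the highest of many, the points share the libraries and their treatments, and they are given as a description.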

How the data were processed

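Per the labels' protocols, poly(A)+ RNA was ligated at 5′ monophosphates and the first 36 bases of each insert were sequenced. Per the file headers, the 3 deposited tables give raw degradome read counts for each library. They also give a second number, called normalized in the headers, which the values show to be the deposited count shared out by a divisor of 1 or more (an expected count, used in 1 alternative). Their TPB signal equals, as the deposited values show, this second number times 1 factor per library, from which the library reads were recovered as whole numbers. The sources used here do not name the mapper, the transcript set or the target caller, and the tables give no cleavage positions. No per-sample column was left unused (0 columns).

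Pairs with a small RNA or a transcript in common were merged where the summed difference of their counts over the 9 libraries was no more than 20% of the larger total. Left out were 3 pairs with more than 1 line in a table. The quasi-likelihood test of edgeR 4.0.16 in R 4.3.3 was run on the counts of all signals in fits of the 2 treatments compared, with library reads as library sizes, an expression filter with minimum count 5 and total 10, and Benjamini-Hochberg adjustment at 0.05. Alternatives were TMM scaling, DESeq2 1.42.0, voom in limma 3.58.1, no filter, merging at 5%, no merging, all treatments in 1 fit, the replicate number as a block, and leaving out each library.

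Members with at least 10 reads are named with their reads in each library, and those that passed the filter with their fold changes. The 3 signals of other families most alike to the member of lowest p, by Spearman correlation among signals of at least 30 reads, are named too. The members, lists and rules were chosen with earlier results of these data known.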

Additional observations from a re-analysis of the deposited data

How the results depend on the processing

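Of the 113 member signals, 5 passed the filter in the fits reported, and the 108 others had at most 26 reads each. Up to 6 members entered a fit that left out a library, 5 the fit of all treatments and 89 to 97 those without a filter. In DTT against control the number of called members was 1, and it was 0 with TMM factors, with TMM factors from all signals (added after seeing the data, adjusted p = 0.0881 for the 3B signal), DESeq2, limma-voom, no filter, no merging and the replicate block (log2 1.71, adjusted p = 0.112). It ranged from 0 to 1 when single libraries were left out. In DTT with TUDCA against control it was 1 under all alternatives. Against DTT it was 1, but 0 by DESeq2 and limma-voom, and 0 to 1 when single libraries were left out. A single sign turned, that of the 3B signal in DTT with TUDCA against DTT, at -0.14 without DTT replicate 3 and up to 0.75 when other libraries were left out. Why these calls moved was not tested. In DTT against control, the fits that left out a library held fewer libraries and tested more signals, 194 to 212 against 156. Those without the filter or without merging tested 3592 and 990 signals.

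No clear pairing of the libraries by replicate number was seen: deviations of same-numbered libraries correlated between -0.21 and 0.13. In the 3 comparisons 1, 3 and 0 of 6 libraries were closest to their own number. Such values cannot exclude a weak pairing. The block changed no other call. Summed reads per 10M fell with the authors' divided number from 80.1 to 51 in the control and from 111 to 76.1 in DTT with TUDCA, as reads shared between places then count in part, and from 79.7 to 56.9 in DTT, within 1 SD. Leaving out single libraries gave 76.1 to 85.1, 110 to 113 and 72.3 to 93.9 for these groups in the same order.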
